A study of Sus scrofa with 8 samples.

Results

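The regions described here are stretches of the pig genome called as open chromatin in both libraries labelled CBP_0h and in none of the other 6 libraries of the series. They were chosen by measured values, namely the authors' peak calls: peaks of the 8 deposited lists on chromosomes 1 to 18 and X were merged wherever they overlapped by 1 bp, and a region was a member if it held a peak of each CBP_0h library and of no other. This gave 2887 regions of 178498 in all, which is 1.62% of merged regions and 2.8% of the 103237 regions called in both CBP_0h libraries. Because the rule fixed the calls, the counts below are descriptions and carry no test. They are named the CBP_0h-only regions.

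The libraries came from porcine muscle satellite cells and were made by ATAC-seq, where a transposase cuts accessible DNA and tags it for sequencing. The series title speaks of CBP inhibition and the differentiation of these cells. Each of 4 groups held 2 libraries: WT_0h and CBP_0h, both given as cell proliferation, and WT_60h and CBP_60h, both given as cell differentiation. The protocol attached to every sample names SGC-CBP30 at 5 uM/ml, given over 48 h while cells proliferated and 60 h while they differentiated, but no label states which samples received it, so groups keep their label names. The labels also name a C3H line grown in RPMI, while the organism and coordinates are those of the pig, and they do not say whether replicates were separate cultures or animals.

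Satellite cells are the stem cells of skeletal muscle, and most of the DNA that controls their genes lies in enhancers away from gene starts. CBP (encoded by CREBBP) and its relative EP300 are acetyltransferases that mark active enhancers and promoters through acetylated histones, and SGC-CBP30 is a ligand of their bromodomains, the modules that bind acetylated lysine. ATAC-seq measures whether DNA is accessible, not whether a histone is acetylated or a gene is transcribed. No sequence or motif of these regions was analysed here.

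Relative depth, taken from the background floor recovered from the authors' values, was 1.98 and 1.43 in CBP_0h replicates 1 and 2 and 1.69 and 2.09 in WT_0h, with the shallowest library set to 1. It ranged from 1 to 1.21 in the 4 libraries at 60 h. The lists held 121757 to 135528 peaks at 0 h and 82696 to 88871 at 60 h. Peaks lay at an end of 4 of 5 satellite cell markers (PAX7, MYF5, MYOD1 and CDH15) in all 8 libraries, and at the ends of 3 of 3 Schwann cell markers in none. Fibroblast (2 of 3), immune (2 of 3) and endothelial (1 of 3) markers also had a peak at a gene end in all 8 libraries. The part of other cell types in the results was not tested.

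The CBP_0h-only regions were weak and narrow peaks. Their median width was 413 bp, against 956 bp for regions called in both CBP_0h libraries. These widths are not like for like, since the latter regions can join peaks of up to 8 libraries. Single peaks had a median width of 623 bp in the list of CBP_0h replicate 1 and 573 bp in that of replicate 2. The median −log10 q, the authors' measure of confidence in a peak, was 5.77 in CBP_0h replicate 1 and 4.83 in replicate 2, where the medians of the whole lists were 11.9 and 10.7. They reached no higher than the 71.1 percentile of peaks in replicate 1 and the 67.1 percentile in replicate 2. At the summit, the median pileup (overlapping reads or fragments, which of them is not stated) was 20 in replicate 1 and 16 in replicate 2. The median fold over local background was 3.51 and 3.69. The values of the 2 libraries followed each other loosely, with a Spearman rho of 0.417 across the 2887 regions, which share libraries and a selection for low values, against 0.911 over regions called in both CBP_0h libraries. The summits of the 2 libraries lay a median of 37 bp apart, and 59.3% lay within 50 bp of each other. A −log10 q of at least 5 in the weaker library was reached by 988 regions (34.2%), and 10 or more by 40.

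**Figure D1:**
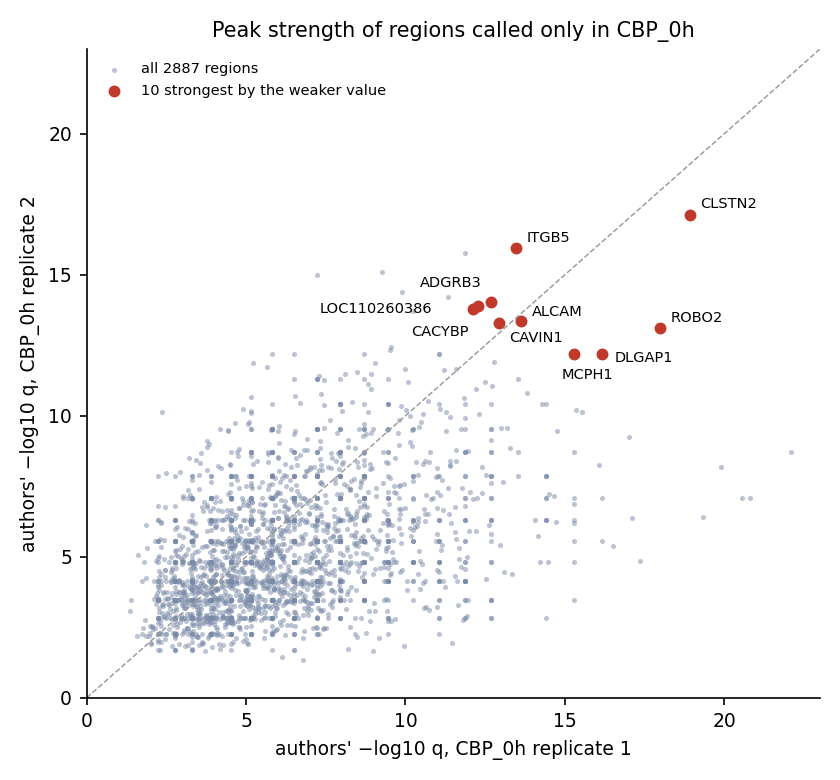
Each point is 1 of the 2887 CBP_0h-only regions, placed by the authors' −log10 q in CBP_0h replicate 1 (horizontal) and replicate 2 (vertical). The dashed line marks equal values; most points lie under 10 on both axes, and the 10 strongest by the weaker value are named by the gene they lie in or nearest to.

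Regions just outside the rule were of similar strength. Another 5018 regions were called in both CBP_0h libraries and in exactly 1 other, with a median −log10 q of 4.83 in the weaker CBP_0h library, against 4.15 for the CBP_0h-only regions. The 1 other library was WT_0h replicate 2, the deepest, for 2564 of these regions and WT_0h replicate 1 for 1581. It was CBP_60h replicate 1 or 2 for 377 and 311, and WT_60h for 95 and 90. A further 10098 regions were called in CBP_0h replicate 1 alone and 4513 in replicate 2 alone. The weakest CBP_0h-only region had a −log10 q of 1.34 in its weaker library, at the limit of the lists. Leaving out CBP_0h replicate 1 or 2 raised the count to 7824 or 13175, and leaving out WT_0h replicate 1 or 2 raised it to 4522 or 5529.

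When each list was cut to its 82696 strongest peaks, 1306 regions met the rule, but only 168 of the 2887 (5.82%) were among them. By construction that setting removes the weakest peaks of the longer lists. The CBP_0h-only regions stood at a median percentile of 21.1 in the list of replicate 1 and 17.4 in that of replicate 2. The pileups were also scaled by relative depth to each other library, a calculation chosen after the data were seen. At the accessibility measured in both CBP_0h libraries, 2876 regions would have passed the lowest −log10 p of WT_0h replicate 1 and 2885 that of replicate 2. In the 60 h libraries 2378 to 2614 would have passed, and 2280 (79.0%) would have passed in all 6. These scaled values are taken from regions picked for being called, so they are high by selection.

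The same rule applied to the other groups gave 3658 WT_0h-only regions (2.05% of merged regions), 1542 CBP_60h-only regions (0.864%) and 379 WT_60h-only regions (0.212%). The WT_0h-only regions were of much the same kind, with a median −log10 q of 4.60 in the weaker library, a median width of 422 bp and a median summit distance of 33 bp. The highest −log10 q in the weaker library was 17.1 among CBP_0h-only and 18.7 among WT_0h-only regions.

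The CBP_0h-only regions differed in local background. In 1198 regions (41.5%) the background was at the floor of both CBP_0h libraries (its most frequent value, to within 1%), where 16% of all regions called in both libraries were at the floor. These had a median width of 426 bp and a median gap of 6.64 kb to the next region, and 13.3% had another region within 500 bp. In 507 regions (17.6%) the background was at least 2 times the floor in both libraries, against 41.9% of all regions called in both. These were narrower (median 370 bp), lay a median of 0.832 kb from the next region, and 39.8% had another region within 500 bp. Within 1 kb of a gene end lay 7.30% of the regions on raised background and 2.003% of those at the floor. WT_0h-only regions had 39.1% at the floor and 21.1% at the raised level. The series holds no control library, so reads of nearby peaks can count toward the local background. Its relation to gaps, neighbours and gene ends may therefore be partly built in, and was not tested.

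**Figure D2:**
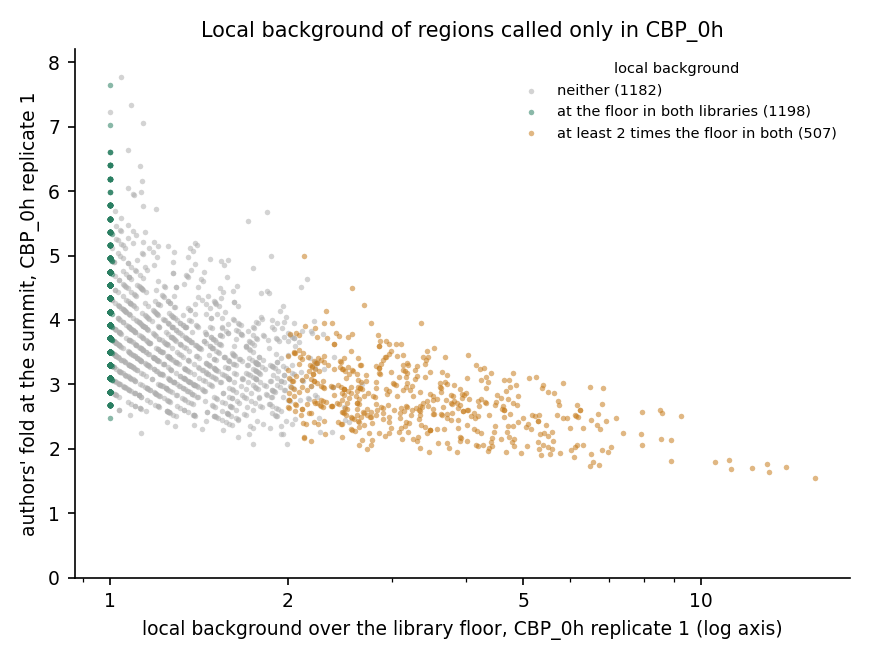
Each point is a CBP_0h-only region, with its local background relative to the floor of CBP_0h replicate 1 (horizontal, log axis) and the authors' fold at its summit (vertical). Green marks the 1198 regions at the floor in both CBP_0h libraries and orange the 507 at 2 times the floor or more in both. Grey marks the other 1182. Folds above 6 occur only near the floor, but fold is itself a ratio to the local background.

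The strongest CBP_0h-only region lay inside CLSTN2, which encodes a calsyntenin, a cadherin-family membrane protein of synapses (chromosome 13, 80863130 to 80864170, Sscrofa11.1). Its −log10 q was 18.9 in CBP_0h replicate 1 and 17.1 in replicate 2, with summit pileups of 34 and 32 over backgrounds of 3.84 and 3.78. The nearest peaks of the other libraries were 7617 and 7626 bp away in WT_0h, 9966 and 9876 bp in WT_60h, and 9645 and 72912 bp in CBP_60h. No other library thus had a peak on its shoulders. It was 1041 bp wide, wide for this set.

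Other isolated regions at or near the floor followed. One lay inside ROBO2, a receptor for the Slit guidance proteins (chromosome 13, 178687667 to 178688193), with a −log10 q of 17.99 and 13.1 and pileups of 33 and 24. Its nearest peaks were about as far in WT_0h (15422 and 15409 bp) as in CBP_60h (15516 and 15527 bp), and much farther in WT_60h (351554 and 351628 bp). A region inside ADGRB3, an adhesion receptor with a role in myoblast fusion (chromosome 1, 49554287 to 49554809), had a −log10 q of 12.7 and 14.0 and pileups of 27 and 25. A region inside DLGAP1, a scaffold protein of synapses (chromosome 6, 102545389 to 102545930), had 16.2 and 12.2 with pileups of 31 and 23. A region between genes on chromosome 15 (37308342 to 37308954), 146540 bp from the nearest end of MCPH1, had 15.3 and 12.2, and no peak of the other 6 libraries lay within 33766 bp. The ROBO2, DLGAP1 and MCPH1 regions were stronger in replicate 1, the deeper library, and the ADGRB3 region in replicate 2.

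The remaining 5 of the 10 strongest lay on higher background, each within 326 bp of another region. ITGB5, the integrin beta 5 subunit, held a 261 bp region (chromosome 13, 135469403 to 135469663) with a −log10 q of 13.5 and 15.9, pileups of 70 and 62, and backgrounds of 22.5 and 16.02. A region called in all 8 libraries lay 192 bp from it. CAVIN1, a coat protein of caveolae, held a 253 bp region (chromosome 12, 20385148 to 20385400) with 12.9 and 13.3 and pileups of 87 and 73, 299 bp from a region called in 7 libraries. A 239 bp region 6925 bp from an end of ALCAM, a cell adhesion molecule (chromosome 13, 154005050 to 154005288), had 13.6 and 13.4 over backgrounds of 8.10 and 5.52. A 409 bp region 1136 bp from LOC110260386 had 12.3 and 13.9, 175 bp from a region called in all 8 libraries. The region at CACYBP is given below with those at gene ends. All 5 ceased to be members when peaks within 500 bp were merged. The CLSTN2, ROBO2, ADGRB3, DLGAP1 and MCPH1 regions met the rule in all 13 alternative settings, equal peak numbers included. Most of these settings could not have removed them. Leaving out a library only loosens the rule, and their −log10 q was above 5 in both libraries. No other region lay within 500 bp of them.

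CBP_0h-only regions lay mostly away from gene ends, as did merged regions in general. Summits fell within 1 kb of an end of a protein-coding gene in 113 regions (3.91%, 95% Wilson interval 3.27 to 4.68), farther inside a gene in 1325 (45.9%, 44.1 to 47.7) and between genes in 1449 (50.2%, 48.4 to 52). Among all merged regions 9.10% were at gene ends, 48.5% inside genes and 42.4% between genes. Among regions called in both CBP_0h libraries these shares were 12.9%, 46.3% and 40.9%. Among the 50575 regions called in all 8 libraries 21.8% were at gene ends. The gene table gives no strand, so a gene end can be the start or the finish of transcription. WT_0h-only regions had 2.73% at gene ends (2.25 to 3.31), 55.8% inside genes (54.2 to 57.4) and 41.5% between genes (39.9 to 43.1). CBP_60h-only regions had 42.0% inside genes and 55.6% between, and WT_60h-only regions 49.3% and 47.5%. At both times the share between genes was thus higher in the CBP-labelled set. Intervals cover counting error only, and neighbouring regions are not independent. The median distance to the nearest gene end was 36.1 kb for CBP_0h-only and 29.2 kb for WT_0h-only regions. It was 26.9 kb for all merged regions and 23.4 kb for those called in both CBP_0h libraries.

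**Figure D3:**
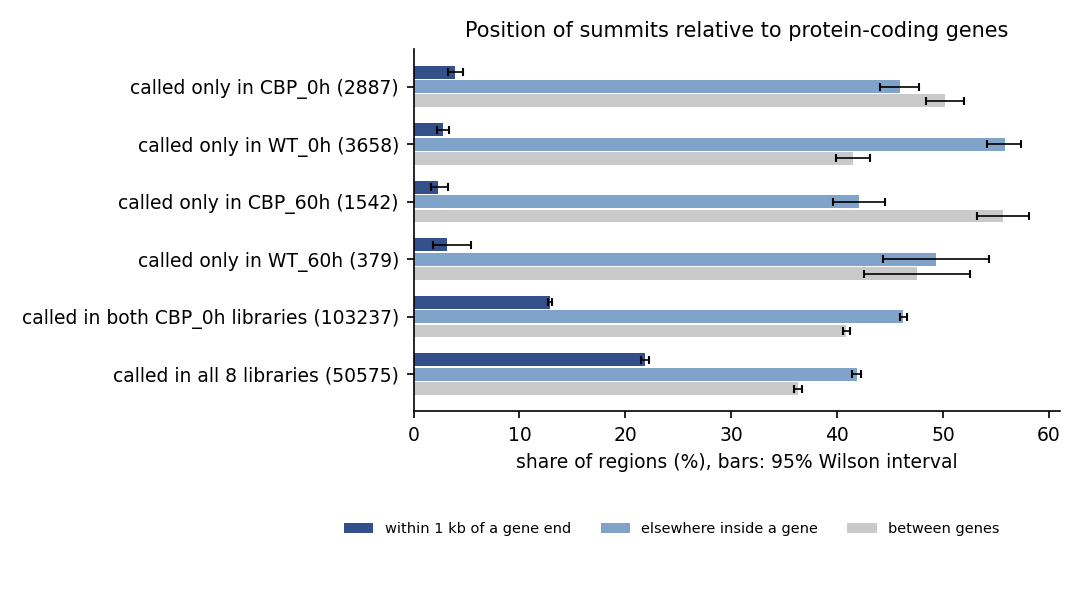
Bars give the share of regions, in percent with 95% Wilson intervals, whose summit lies within 1 kb of a protein-coding gene end, farther inside a gene or between genes, for 6 sets with their number of regions in brackets. The CBP_0h-only set has 3.91%, 45.9% and 50.2%; the WT_0h-only set has more inside genes (55.8%) and fewer between genes (41.5%).

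At gene ends the strongest CBP_0h-only region was 715 bp from an end of CACYBP, a calcyclin-binding protein (chromosome 9, 117062885 to 117063131), with a −log10 q of 12.1 and 13.8 and pileups of 64 and 58. A region called in all 8 libraries lay 176 bp away. Regions near MPP7, a membrane scaffold protein (10.1 and 11.2), RPL24, a ribosomal protein (8.04 and 8.37), LOC110261387 (8.93 and 11.5) and C7H14orf93 (7.29 and 8.09) were each within 272 bp of a region called in all 8 libraries. The regions near CD96, an immune receptor (7.93 and 8.11), and DNAJB2, a co-chaperone (8.25 and 7.40), adjoined a region called in 7 libraries and lay 386 bp from one called in 2. The regions at SMCP, a sperm mitochondrial protein (12.4 and 8.17), and at LOC110257580 (8.89 and 8.13) stood farther from other regions, with gaps of 9011 and 2819 bp to the next.

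Of the 2887 regions, 1682 could be linked to a protein-coding gene end within 50 kb, or 1.47% of the 114672 linked regions. The same count for WT_0h-only regions was 2289, or 2%. Linked CBP_0h-only regions touched 1537 of 17499 genes with any linked region (8.78%), and 134 genes (0.766%) had 2 or more. The regions were thus spread thinly, with 1 linked region at 1403 genes, 2 at 124, 3 at 9 and 4 at COL4A1.

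COL4A1 encodes a chain of type IV collagen, the network of the basement membrane around muscle fibres and satellite cells (chromosome 11, 76858332 to 76997409). It had 4 CBP_0h-only regions of 24 linked, and 1 WT_0h-only region. The number of its linked regions called was 16 and 16 in CBP_0h, 14 and 15 in WT_0h, 10 and 10 in CBP_60h, and 13 and 11 in WT_60h. The CBP_0h counts include the 4 regions the rule chose, and the counts were not tested. The strongest of the 4 lay inside the gene (76903469 to 76903689), with a −log10 q of 11.5 and 6.76 and pileups of 58 and 41. Another 2 lay inside COL4A2, the adjoining gene of the partner chain, with 7.62 and 3.31, and 5.82 and 4.26. The 4th was between genes, with 3.97 and 3.20.

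MSR1, a scavenger receptor of macrophages (chromosome 17, 3859903 to 3939612), had 3 CBP_0h-only regions of 4 linked. The remaining linked region was called in CBP_0h replicate 2 and nowhere else. The rule itself kept the other 3 free of calls elsewhere. The locus thus had 3 and 4 calls in CBP_0h and 0 in each of the other 6 libraries. Its regions at 3835166 to 3835392 and 3835567 to 3835810 were 174 bp apart, with a −log10 q of 7.94 and 7.88, and of 8.69 and 10.4. The region at 3885160 to 3885797, inside the gene, had 7.94 and 5.56. All 3 were on floor background, with pileups of 15 to 22. The nearest peak of any other library to the first was 91372 bp away, in WT_0h replicate 2, and to the region inside the gene 138311 bp away, in WT_60h replicate 2. Of the 3 immune markers, CD68 and SPI1 had a peak at a gene end in all 8 libraries and PTPRC in 2, and their part in the MSR1 calls was not tested.

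MEP1B, the beta subunit of the metalloprotease meprin (chromosome 6, 116015021 to 116049796), had 3 of 7 linked regions in the set. All 7 were called in each CBP_0h library, against 3 and 3 in WT_0h, 3 and 3 in CBP_60h, and 2 and 1 in WT_60h. The CBP_0h counts at MEP1B include the 3 regions the rule chose, and the other counts exclude them by rule. Its 3 regions were on floor background and stronger in CBP_0h replicate 1 (6.51, 11.9 and 9.46) than in replicate 2 (5.56, 4.14 and 4.83). PLA2R1, a receptor for secreted phospholipases (chromosome 15, 66899783 to 67018608), had 3 of 16, lying in a row from 66927586 to 66929208, with gaps of 266 and 308 bp between them. ERCC6L2, a helicase of DNA repair, had 3 of 13, of which 1 had a −log10 q of 7.44 and 11.3 and lay 203 bp from a region called in all 8 libraries. The WT_0h-only counts at these genes were 0 for MEP1B, 1 for PLA2R1 and 0 for ERCC6L2.

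The other genes with 3 linked CBP_0h-only regions were ANKRD28, a subunit of protein phosphatase 6 (of 17 linked), PEPD, the proline-releasing peptidase prolidase (of 22), SLC6A6, the taurine transporter (of 24), TPRG1 (of 28) and FBLN2, the matrix protein fibulin 2 (of 29). Their −log10 q in the weaker library ran from 2.25 at FBLN2 to 7.40 at TPRG1. With equal peak numbers, none of the 10 genes with most linked regions had a linked region in the set. With peaks under a −log10 q of 5 left out of every list, MSR1 and ERCC6L2 had 3, MEP1B, PLA2R1 and TPRG1 had 2, COL4A1, ANKRD28, SLC6A6 and FBLN2 had 1, and PEPD had 0.

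**Figure D4:**
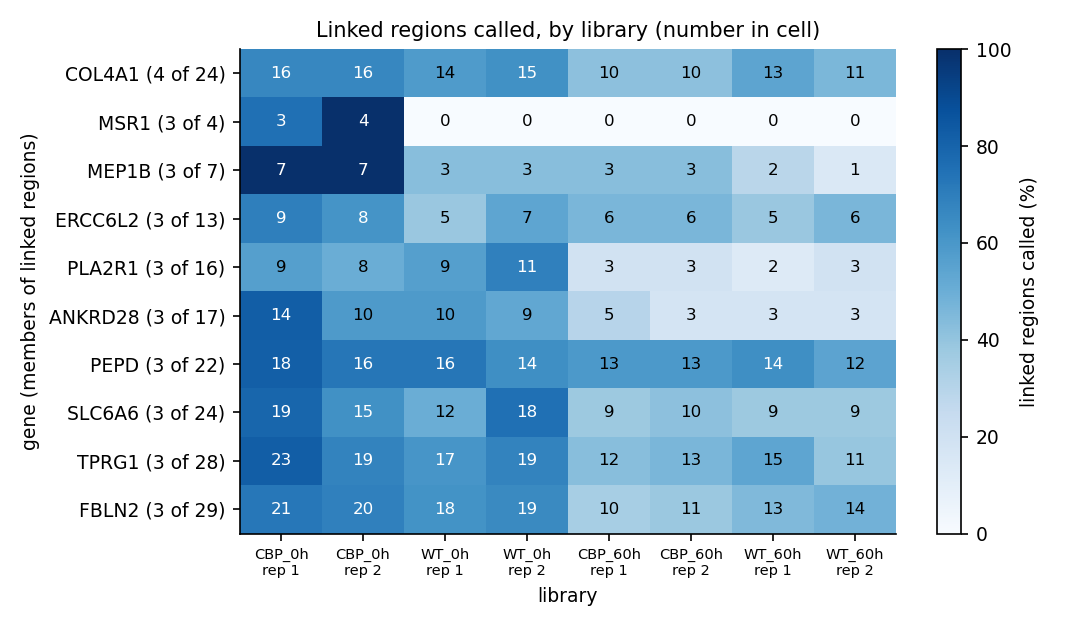
Each row is 1 of the 10 genes with the most linked CBP_0h-only regions (their number of the linked regions in brackets), each column 1 of the 8 libraries, and each cell gives the number of linked regions called, shaded by their percent. Only MSR1 has no call outside CBP_0h; counts in CBP_0h include the regions the rule chose.

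The 18 gene lists held few CBP_0h-only regions each, from 0 to 9. Among the regulators of muscle differentiation, 2 of 228 linked regions (0.877%, against 1.47% of all linked regions) were in the set, 1 each at MEF2A and MEF2C. The satellite cell and Notch list had 1 of 281 (0.356%), at RBPJ, the DNA-binding partner of Notch. MYOD1 and MYOG, which drive myogenic commitment and differentiation, had 0 of 8 and 0 of 10, MYF5 had 0 of 5, and PAX7, the defining factor of satellite cells, had 0 of 42. At PAX7 25 and 23 of these were called in CBP_0h, 25 and 25 in WT_0h, 9 and 11 in CBP_60h, and 8 and 12 in WT_60h. The acetyltransferase and bromodomain list had 2 of 261 (0.766%), 1 at the coactivator NCOA3 and 1 at the deacetylase HDAC4. CREBBP had 0 of 17 and EP300 0 of 8. At CREBBP the calls were 14 and 12 in CBP_0h and 13 and 14 in WT_0h, which overlap.

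Sarcomere and contraction genes had 8 of 279 linked regions in the set (2.87%) at 7 of 35 genes. TPM1, a tropomyosin of the thin filament, had 2 of 22, at 108982672 to 108983085 and 108983313 to 108983990 on chromosome 1, with a −log10 q of 14.5 and 7.21, and of 2.65 and 4.10. TNNT3, MYL4, TTN, MYL2, ACTN2 and MYOM2 had 1 each. Myoblast fusion and adhesion genes had 7 of 320 (2.19%), 1 each at STAB2, ADGRB3, DOCK1, CDH2, ITGB1, CDON and ITGA6. The ADGRB3 region of that count (49575261 to 49575775, with 5.98 and 7.30) is not the stronger one described above, which lay over 50 kb from the gene's ends. Cell cycle genes had 5 of 131 (3.82%), 1 each at RB1, CDKN1A, CCND2, CCNE1 and E2F3. With equal peak numbers these lists had 3, 5 and 1 regions.

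Fibroblast and matrix genes had 9 of 485 (1.86%), of which 4 were those of COL4A1. The TGF-beta and BMP list had 6 of 365 (1.64%), 1 each at TGFB2, TGFB3, BMP4, NOG, SMAD2 and BMPR1B. RUNX, TEAD and Hippo genes had 3 of 170 (1.76%), with 2 at the transcription factor RUNX1 and 1 at RUNX3. The stronger RUNX1 region (chromosome 13, 198379878 to 198380398) had a −log10 q of 9.53 and 12.3 and lay 169 bp from a region called in all 8 libraries. Adipogenic genes had 3 of 169 (1.78%), with 2 at CEBPA and 1 at PPARG, both regulators of fat cell differentiation. The CEBPA region at 43075401 to 43076112 on chromosome 6 had 8.38 and 7.76, and the other 2.26 and 3.04. With equal peak numbers these 4 lists had 3, 4, 2 and 0, again not necessarily the regions named.

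The AP-1 and immediate early list had 2 of 216 (0.926%), at FOS and ATF3, the inflammatory and NF-kB list 3 of 257 (1.17%), at STAT3, IL6R and LIF, and the mitochondrial list 3 of 102 (2.94%), at IDH2, NRF1 and PPARD. Endoplasmic reticulum stress genes had 0 of 85 and housekeeping genes 0 of 74. The immune and the neural markers had the highest shares of the 18 lists, each from 3 regions. Immune markers had 3 of 58 (5.17%), at CD163, ITGAM and PTPRC, and neural and Schwann markers 3 of 75 (4%), at SOX10, SNAP25 and PMP22. Endothelial markers had 2 of 133 (1.5%), at EMCN and FLT1. The part of such cells in these counts was not tested. With equal peak numbers the immune, neural and endothelial lists had 0, 1 and 1 regions. The AP-1, inflammatory, mitochondrial and housekeeping lists then had 0, 4, 1 and 1. These counts can include regions outside the 2887, as the 4 inflammatory regions against 3 and the housekeeping region against 0 must. With links within 10 kb the immune list had 0 and the neural list 1. Every other list with a region in the set also had fewer then. The fusion list had 1, the matrix list 2, the TGF-beta and BMP list 2, and the inflammatory and AP-1 lists 0. The sarcomere list kept 6.

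Regions called only in WT_0h made up 2% of all linked regions, against 1.47% for CBP_0h-only regions, and the lists differed in both directions. More WT_0h-only than CBP_0h-only regions were linked to the acetyltransferase list (8 against 2), the myogenic regulators (5 against 2), the satellite cell and Notch list (4 against 1), endoplasmic reticulum stress (4 against 0), RUNX, TEAD and Hippo genes (5 against 3), the inflammatory list (5 against 3) and housekeeping genes (1 against 0). Fewer were linked to cell cycle genes (0 against 5), sarcomere genes (4 against 8), the TGF-beta and BMP list (4 against 6), adipogenic genes (0 against 3), mitochondrial genes (2 against 3), and endothelial (1 against 2), immune (1 against 3) and neural (0 against 3) markers. The counts were equal for the fusion list (7), the matrix list (9) and the AP-1 list (2). These counts are small, and the lists were not tested.

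Every chromosome held CBP_0h-only regions. As a share of regions called in both CBP_0h libraries they ranged from 1.96% on the X chromosome (47 of 2401, 95% Wilson interval 1.48 to 2.59) to 3.54% on chromosome 17 (111 of 3135, 2.95 to 4.25). Chromosome 13 had 274 of 8359 (3.28%) and chromosome 11 had 91 of 2705 (3.36%). Of 2375 windows of 1 Mb with a region called in both CBP_0h libraries, 1542 held a CBP_0h-only region, 721 of them exactly 1, and 37 held 5 or more. The fullest, on chromosome 17 from 58000001 to 59000000, held 8 of 124 regions, around GNAS, PMEPA1 and RAB22A, and 5 WT_0h-only regions. The next, on chromosome 11 from 76000001 to 77000000, held 7 of 99, around COL4A1, IRS2 and MYO16, and 1 WT_0h-only region. Neighbouring CBP_0h-only regions lay a median of 478 kb apart, and 73 of 2868 neighbouring pairs were within 10 kb.

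The surroundings of CBP_0h-only regions were about as rich in peaks in WT as in CBP libraries at 0 h. Other peaks within 10 kb numbered 33.6 and 32.8 per 1000 peaks of the library in CBP_0h, 33.0 and 33.2 in WT_0h, 32.1 and 32.6 in CBP_60h, and 31.6 and 30.7 in WT_60h. The groups overlapped at 0 h and did not at 60 h, where CBP was higher. Around WT_0h-only regions the values at 60 h were 42.8 and 43.1 in CBP and 46.2 and 45.1 in WT, with WT higher. No test of these values was made. The regions of each set were chosen by calls in these same libraries, so the order of the labels at 60 h may be partly built in. Flanks were not counted around other sets of regions for comparison. In total 549 CBP_0h-only regions (19%) had no peak of the other 6 libraries within 10 kb, 46 had none within 50 kb and 12 none within 100 kb. Counting merged regions of any library instead, 15.1% of CBP_0h-only regions had none within 10 kb. The share was 12.9% for regions called in both CBP_0h libraries, 12.4% for WT_0h-only, 25.6% for CBP_60h-only and 17.2% for WT_60h-only regions.

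**Figure D5:**
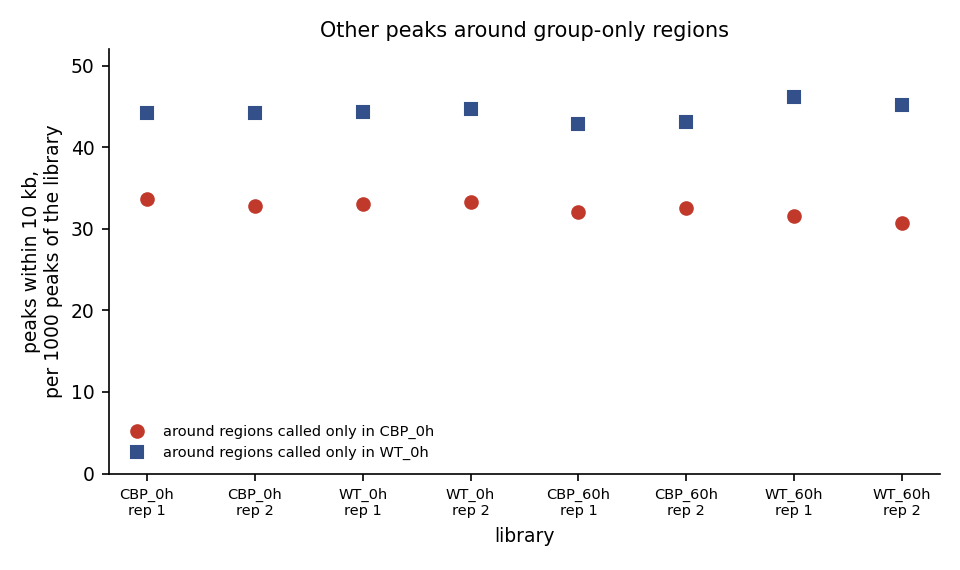
Points give, for each of the 8 libraries, the number of other peaks within 10 kb of a CBP_0h-only region (red circles) or a WT_0h-only region (blue squares), per 1000 peaks of that library. The red values lie between 30.7 and 33.6 and the blue between 42.8 and 46.2, since the blue set holds more regions (3658 against 2887) the levels of the colours are not comparable, only their order across libraries.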

How the data were processed

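The submitters' processing notes list Trimmomatic, MACS2 2.1.0 and the build Sscrofa11.1. The aligner, duplicate removal and read shift are not stated there or in the labels. The authors deposited 1 peak list per library, giving each peak a score, a fold enrichment (a ratio to local background) and its p-value and q-value as −log10. All of these are the authors' values. Local background and summit pileup were solved from the deposited fold and −log10 p under the peak caller's Poisson formula. Only whole pileups were searched, and for 100% of peaks the best one gave the deposited −log10 p to within 0.01. A library's floor is its most frequent background. Read totals are unknown, so relative depth is the floor over the lowest floor.

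Regions were placed by the summit of the strongest peak against RefSeq protein-coding genes of Sscrofa11.1, without strand, and linked to the nearest gene end within 50 kb. Of 380 entries in 18 lists, 360 matched. Named were the 10 strongest regions by the weaker −log10 q, the 10 strongest at gene ends, the 10 genes with most linked regions, list genes with 2 or more, and 6 fixed genes; 1 gene-end region is not reported here. Promoter sequences were not used here. Members and lists were chosen with earlier results of these data known. No p-value was computed. Merging, the rule and pileup recovery were tested on simulated data. Python 3.11.15, pandas 2.3.3 and scipy 1.17.1 were used. Alternatives covered the −log10 q threshold, overlap, merging distance, peak number, sequences used, links and each library left out.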

Additional observations from a re-analysis of the deposited data

How the results depend on the processing

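The number of regions was 2723 with peaks under a −log10 q of 5 left out of all lists, 4001 with 50% of a region covered, 2338 with peaks within 500 bp merged and 2907 over all sequences, and of the 2887 regions 988, 2362 and 2279 were still members in the first 3. It was 988 with that threshold asked of CBP_0h alone and 1306 with equal peak numbers. Of the alternatives chosen after the data were seen, depth scaling left 2280 and leaving out regions within 500 bp of another left 2134. Without 1 library it ranged from 2978 to 13175. The share at gene ends was 3.24% with the threshold on CBP_0h, 2.37% with equal peak numbers, 2.74% with wider merging, 2.11% within 500 bp and 12.9% within 5 kb, and 3.8% to 4.45% without 1 library. Inside genes it was 43.8% with the threshold on CBP_0h and 45.8% to 49.9% without 1 library, and between genes 52.9% and 46.2% to 50.3%. With links within 1 kb none of the 10 genes had a linked region in the set. The cause of these differences was not tested, except that leaving out a library loosens the rule. No paired analysis was possible because the counts and shares are taken over both libraries of a group together and no test was run that could carry a replicate block. Depth limits absence: a site at the floor needed a pileup of 10 or 11 in WT_0h and 7 or 8 at 60 h to be called.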

Other observations

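Among the listed genes, these regions were picked after their values were seen. PMP22, a myelin protein, held a region on chromosome 12 (58723621 to 58723888) with a −log10 q of 10.2 in CBP_0h replicate 1 and 13.7 in replicate 2, 347 bp from a region called in all 8 libraries. TIMP3, an inhibitor of matrix metalloproteases, held a region on chromosome 5 (12231988 to 12232509) with 10.01 and 10.2, whose nearest peak in another library was 3229 bp away, in WT_60h replicate 1. ITGB1, the integrin beta 1 subunit, held a region on chromosome 10 (56120213 to 56120475) with 10.6 and 8.40. CDH2, a cadherin of satellite cells and their niche, had a region 30138 bp from its end (chromosome 6, 112659046 to 112659394) with 12.7 and 7.08 on floor background. The CDH2 region lay 316 bp from a region called in 2 libraries and 431 bp from a peak of WT_60h replicate 2. TGFB2 held a region on chromosome 10 (8433679 to 8434157) with 14.2 and 5.73, so its strength differed widely between the 2 libraries.

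On sequences other than chromosomes 1 to 18 and X, 20 regions were called only in CBP_0h and 20 only in WT_0h, of 1716 there. CBP_60h-only and WT_60h-only regions numbered 12 and 4.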
